A study of Mus musculus with 6 samples.

Results

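Iron storage, transport and sensing was followed in these kidneys with 10 chosen genes, which were taken by symbol from the 54532 gene rows of the deposited table. Whole kidneys came from KsprtTA mice (Control, called WT in the labels) and from KsprtTA/TRE-adiponectin mice (KSPAPN), which make adiponectin in the tubular epithelium when given doxycycline. Both groups carried KsprtTA and received doxycycline in chow at 600 mg/kg for 4 days, and the mice were males on a C57BL/6 background whose age was not given. Each group had 3 RNA-seq libraries, and each library pooled 3 mice. The Ksp promoter is active along the tubule, in proximal segments and on into the collecting duct, so the transgene was not limited to a single tubule segment. Separate pools are the replicates here, and p-values measure the spread between pools. The labels describe the extracted tissue as liver in their extraction text and as kidney everywhere else. Kidney markers were abundant in every library, where the summed level of 12 proximal tubule markers was between 25163 and 40679 CPM, counts scaled to the size of the library.

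Cells keep iron inside ferritin, a shell built from heavy and light subunits, and take it up from blood bound to transferrin. The transferrin receptor carries it into endosomes, where a reductase and a divalent metal transporter move it to the cytosol, and ferroportin returns it to the blood. IRP1 and IRP2 read the iron level in the cytosol by binding a hairpin in RNA, the iron-responsive element. A hairpin before the coding sequence lets the bound protein block translation, while hairpins after the coding sequence of the transferrin receptor protect its mRNA from decay. Proximal tubule cells also recover iron that passes the glomerular filter. RNA-seq reads the amount of these mRNAs and not their translation.

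The iron-responsive elements of the 10 genes are shown because they link the sensors to the genes they control. GENCODE M21 transcripts (GRCm38) were searched on the transcript strand for a C, then 5 bases, the loop CAGTGN and 5 bases that pair with the first 5, allowing G-U pairs. An element in which the 5 pairs formed only with 1 extra unpaired base after the loop was kept apart. Each element is written 5′ to 3′ in 29 bases, with the loop in capitals. Fth1, Ftl1 and Slc40a1 held 1 element each in the 5′ UTR, and Tfrc held 4 in the 3′ UTR. Slc11a2 held 1 with such an unpaired base in the 3′ UTR of a single annotated transcript.
Fth1, 5′ UTR, chr19:9982732-9982760, plus strand: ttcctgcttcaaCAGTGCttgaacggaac
Ftl1, 5′ UTR, chr7:45459779-45459807, minus strand: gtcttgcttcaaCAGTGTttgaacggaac
Slc40a1, 5′ UTR, chr1:45925465-45925493, minus strand: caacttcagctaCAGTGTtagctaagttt
Tfrc, 3′ UTR, chr16:32631219-32631247, plus strand: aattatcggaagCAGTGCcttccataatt
Tfrc, 3′ UTR, chr16:32631598-32631626, plus strand: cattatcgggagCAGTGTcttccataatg
Tfrc, 3′ UTR, chr16:32631663-32631691, plus strand: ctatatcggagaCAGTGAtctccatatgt
Tfrc, 3′ UTR, chr16:32631710-32631738, plus strand: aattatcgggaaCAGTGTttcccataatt
Slc11a2, 3′ UTR, chr15:100395153-100395181, minus strand: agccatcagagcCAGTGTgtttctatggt

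The 2 ferritin elements were identical at 26 of 29 positions. Among the 4 elements of *Tfrc*, pairs were identical at 18 to 25 positions. The elements of *Slc40a1* and *Slc11a2*, which encode the exporter and an importer, matched at 13 positions. Letters of this pattern are not particular to iron genes. Of 21839 protein-coding genes, 1.35% held a fully paired match in some transcript, 0.142% held it in a 5′ UTR and 0.586% in a 3′ UTR. With 1 extra unpaired base after the loop also allowed, 4.03% held a match. A match in this search is a description of the letters and no measure of binding.

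All 10 genes passed the filter on low counts and were among the 16017 genes tested with edgeR. None reached an adjusted p under 0.05 in either direction, where 0.393% of all genes tested were called higher and 2.25% were called lower (2.65% in either direction). At an unadjusted p under 0.05, 4 of the 10 were lower in KSPAPN (*Fth1*, *Tfrc*, *Slc11a2* and *Aco1*) and 1 was higher (*Slc40a1*), where 11.2% of all genes tested were lower and 7.52% were higher. The same 5 genes had libraries that did not overlap between the groups, a pattern seen in 13.1% of all genes tested for lower and in 11.4% for higher. With DESeq2, 3 of the 10 were called lower (*Tfrc*, *Slc11a2* and *Aco1*) and 0 higher, against 5.11% and 1.22% of the genes to which it gave an adjusted p. In log2 fold change 5 of the 10 genes lay above 0 and 5 below, with a median of -0.086 against 0.012 over all genes tested. This median was -0.013 without Control replicate 3, -0.032 without KSPAPN replicate 2, -0.14 without KSPAPN replicate 1, -0.13 without KSPAPN replicate 3 and -0.013 with total counts only.

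The calls turned on the fit. The correction for GC content and length, in which a trend of each library against both was removed, called 2 of the 10 lower (*Tfrc* and *Slc11a2*) and 0 higher, against 2.41% and 0.512% of all genes. With the replicate number as a block 1 was lower (*Tfrc*), against 4.4% of all genes, and with both changes together also 1, against 3.67%. Without the filter on low counts 2 were lower (*Tfrc* and *Slc11a2*) and 1 higher (*Slc40a1*), against 3.53% and 1.02% of the genes then tested. Without KSPAPN replicate 1, *Slc40a1* was called higher, against 0.986% of all genes. That library differed most from its own group. The chi-square of counts per degree of freedom was 36.1 and 27.2 against KSPAPN replicates 2 and 3. Between KSPAPN replicates 2 and 3 it was 11.0, and between Control libraries 14.2 to 17.9. *Fth1* was called in none of the alternatives.

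The libraries held 17183358 to 20871173 counts on genes, and the KSPAPN libraries were overall deeper, with a median of 19821381 against 17921633. *Adipoq*, the overexpressed gene, had 2, 0 and 2 counts in the Control libraries and 24629, 17483 and 26811 in the KSPAPN libraries, so every library matched its label. Whole-kidney RNA cannot tell fewer cells of a type from less RNA per cell. A few markers of nephron segments were called different between the groups by edgeR. Of 12 proximal tubule markers 11 were lower in mean. Among them 2 were called lower, *Slc22a6* (log2 fold change -0.46) and *Slc7a13* (-1.46), where 2.25% of all genes tested were. Their summed level was 30920 to 40679 CPM in Control and 25163 to 33126 CPM in KSPAPN, so the ranges overlapped, and no marker of this list was at 0. The 10 distal nephron and collecting duct markers did not move one way. Of these 7 lay above 0 and 3 below, with log2 fold changes from -0.36 to 0.52. The 1 called higher was *Slc12a1* (0.52), where 0.393% of all genes tested were called higher. It was also the only one higher at an unadjusted p under 0.05, where 7.52% of all genes tested were. At that level 2 were lower without passing the adjusted test, where 11.2% of all genes tested were lower. The list summed to 5134 to 5630 CPM against 5247 to 6487 CPM. Each of these 3 calls was lost when Control replicate 1, Control replicate 2 or KSPAPN replicate 3 was left out, with adjusted p in edgeR between 0.0770 and 0.193. The calls of *Slc22a6* and *Slc12a1* were also lost without Control replicate 3 or KSPAPN replicate 2 (adjusted p between 0.0744 and 0.0960). The part of the segments in the values below was not tested.

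In FPKM, fragments scaled by gene length and by library size so that levels of different genes can be set side by side, the 10 genes covered a wide range. Among the 13805 protein-coding genes tested, *Fth1* was the 10th most abundant in both groups, and *Ftl1* ranked 25 in Control and 22 in KSPAPN. *Aco1* followed at a mean of 92.8 ± 5.30 FPKM (SD, n = 3) in Control. *Slc11a2* (17.4 to 21.0 FPKM in Control) and *Tfrc* (14.8 to 19.6) overlapped each other, and *Ireb2* (11.3 to 13.4) lay below both. *Slc40a1* (5.47 to 5.87) and *Hfe* (4.05 to 6.48) could not be ordered in Control, *Steap3* lay below them at 3.10 to 3.49, and *Trf* was last at 0.163 to 0.308. In KSPAPN *Ireb2* (11.4 to 14.5) overlapped both *Slc11a2* (14.4 to 16.0) and *Tfrc* (11.6 to 13.8), *Slc11a2* and *Tfrc* no longer overlapped each other, and the rest of the order stayed as in Control.

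**Figure D1:**
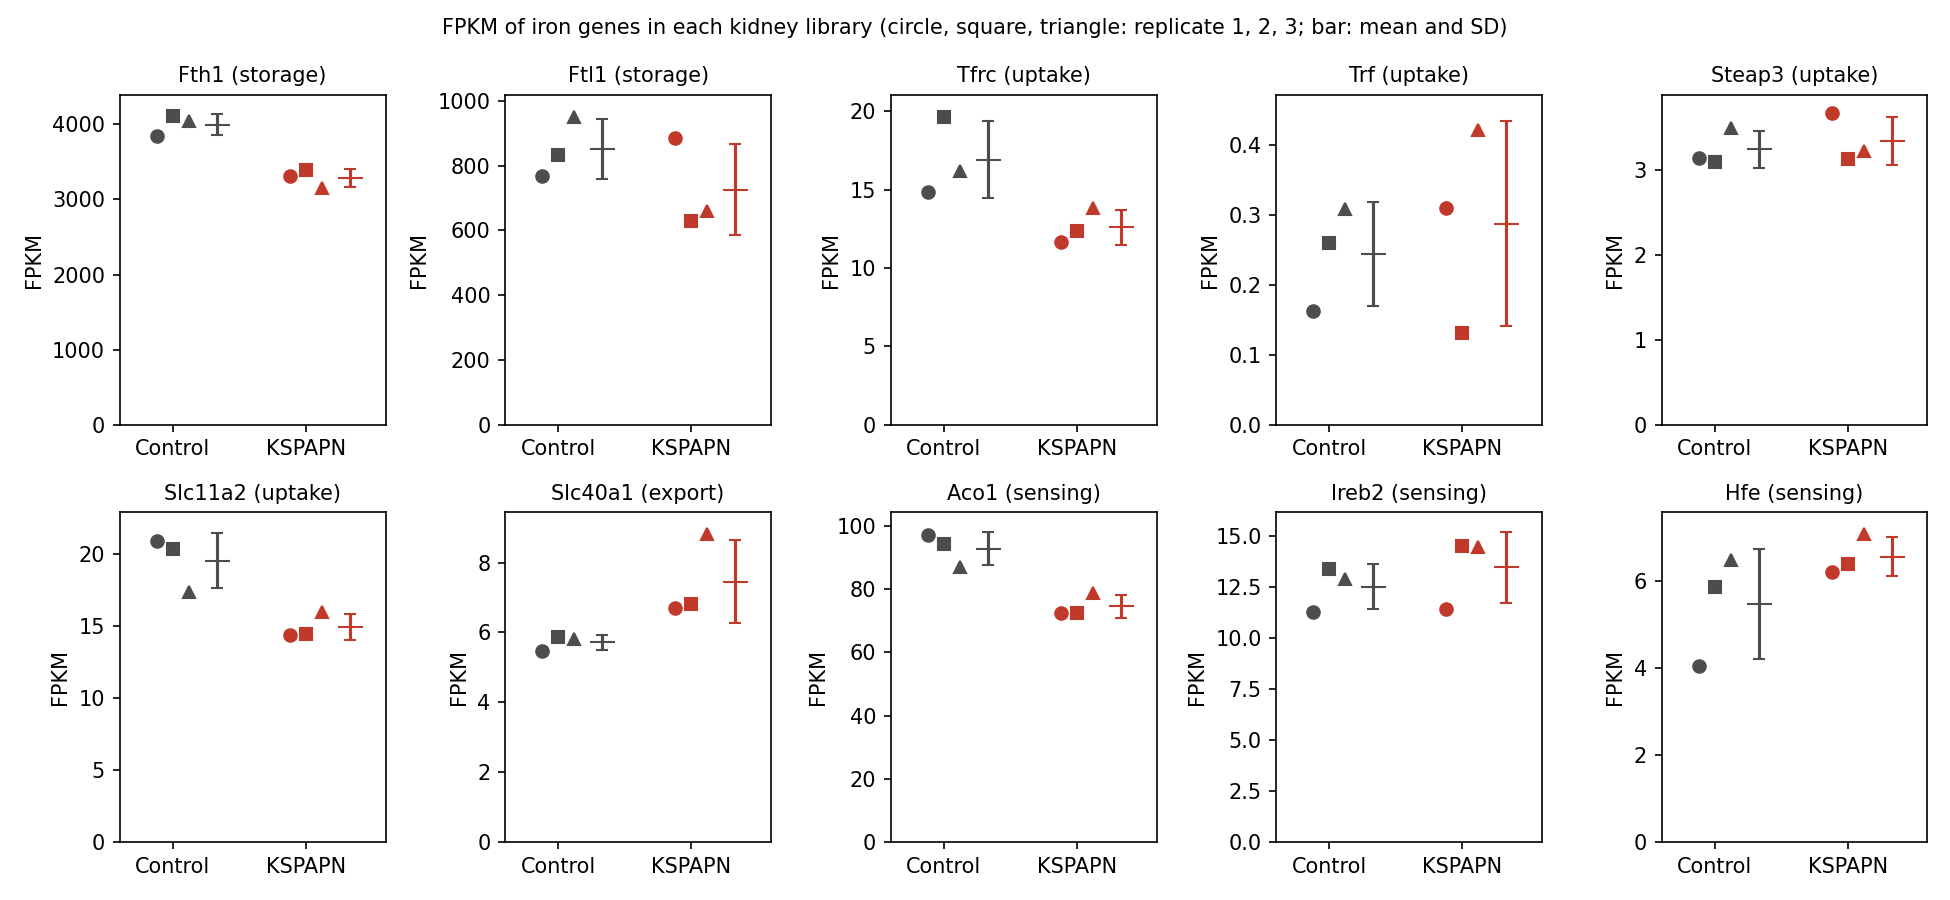
FPKM of the 10 iron genes in the 3 Control (grey) and 3 KSPAPN (red) libraries, 1 panel per gene with its own linear axis from 0; circles, squares and triangles are replicates 1, 2 and 3, and the bar beside them is the mean with its SD. The groups are apart for *Fth1*, *Tfrc*, *Slc11a2*, *Slc40a1* and *Aco1*, and overlap for the other 5 genes.

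The storage genes were *Fth1*, the ferritin heavy chain, whose ferroxidase activity loads iron into the shell, and *Ftl1*, the light chain, which favours deposition of the mineral core. *Fth1* (ENSMUSG00000024661, chr19:9980598-9985098) stood at 3837, 4101 and 4036 FPKM in the Control libraries and at 3308, 3385 and 3155 FPKM in the KSPAPN libraries. Every KSPAPN library lay below every Control library. The means were 3991 ± 138 and 3283 ± 117 FPKM (SD, n = 3 per group). In edgeR the log2 fold change was -0.28 with an SE of 0.10, and the adjusted p was 0.186 in edgeR and 0.0521 in DESeq2. The gene took 0.338% to 0.358% of all counts in Control and 0.286% to 0.320% in KSPAPN. Its libraries were close to each other within groups, with a within-group SD of 0.0515 in log2 CPM, against a median of 0.198 over all genes tested. Leaving out single libraries moved the log2 fold change between -0.31 and -0.25.

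*Ftl1* (ENSMUSG00000050708, chr7:45457944-45459884) had 769, 831 and 951 FPKM in Control and 886, 628 and 661 FPKM in KSPAPN. The groups overlapped because KSPAPN replicate 1 lay between the Control libraries, while the other two lay below all of them. The means were 850 ± 92.3 and 725 ± 140 FPKM (SD, n = 3 per group). This gave a log2 fold change of -0.22 with an SE of 0.15 and an adjusted p of 0.456 in edgeR. Without KSPAPN replicate 1 it was -0.38 (adjusted p 0.0794), without KSPAPN replicate 2 it was -0.12 (adjusted p 0.751) and without Control replicate 3 it was -0.13 (adjusted p 0.738). After a correction for GC content and length it was -0.024, and GC content in this transcript was 58.1%.

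Counts of the light chain are less certain than those of the heavy chain, because copies of it lie elsewhere in the genome. Of the stretches of 100 bases in the longest *Ftl1* transcript, 60.4% also occurred in transcripts of 4 other genes, among them *Ftl1-ps1*, *Ftl2-ps* and *Gm15590*. The rows of *Ftl1-ps1*, *Ftl1-ps2*, *Ftl2-ps* and *Gm15590* together held 0.554% to 0.826% as many counts as *Ftl1*. Most of these reads were in *Ftl1-ps1*, with 89 to 138 counts per library. *Gm10252*, on the opposite strand, shared 26.5% of the exonic bases of *Ftl1* and had 2 to 14 counts. For *Fth1* 0.573% of stretches were shared, and the rows of *Gm6977* and *Fth-ps2* held at most 1 count per library. Adding the rows of the copies left both log2 fold changes as they were, at -0.28 and -0.22. With so few counts in these rows the addition could hardly move them. It cannot show how reads from the shared stretches were counted.

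The ratio of heavy to light chain FPKM, a measure that cancels the depth of a library, was 4.99, 4.94 and 4.25 in Control and 3.73, 5.39 and 4.77 in KSPAPN. The groups overlapped, with the lowest and the highest value both in KSPAPN. The means were 4.72 ± 0.414 and 4.63 ± 0.837 (SD, n = 3 per group).

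Of the 4 uptake genes, *Tfrc* and *Slc11a2* were lower in KSPAPN in every library, and *Trf* and *Steap3* overlapped. *Tfrc* (ENSMUSG00000022797, chr16:32608920-32632794) encodes the transferrin receptor. Its level was 14.8, 19.6 and 16.2 FPKM in Control and 11.6, 12.3 and 13.8 FPKM in KSPAPN. The highest KSPAPN library stayed below the lowest Control library. The means were 16.9 ± 2.45 and 12.6 ± 1.12 FPKM (SD, n = 3 per group). The log2 fold change of -0.42 had an SE of 0.12 and was the lowest of the 10 genes. The adjusted p was 0.0914 in edgeR and 0.0330 in DESeq2.

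*Tfrc* passed in more alternatives than the other 9 genes. It was called lower in 5 alternatives, with an adjusted p of 0.00956 and a log2 fold change of -0.59 after the correction for GC content (39.8% in this transcript) and length, and with an adjusted p of 0.00601 without the filter on low counts. With the replicate number as a block the adjusted p was 0.0497. When any single library was left out it did not pass, and the log2 fold change ran from -0.50 to -0.30, the latter without Control replicate 2, the highest library. Beside *Fth1*, *Tfrc* did not separate the groups. *Tfrc* per 1000 *Fth1* was 3.87, 4.78 and 4.02 in Control and 3.51, 3.65 and 4.38 in KSPAPN on the FPKM scale, so the ranges overlapped. *Fth1*, whose element lies in the 5′ UTR, and *Tfrc*, whose 4 elements lie in the 3′ UTR, were both lower in mean. The part of the elements in these levels was not tested.

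*Slc11a2* (ENSMUSG00000023030, chr15:100387898-100425072) encodes DMT1, which moves ferrous iron out of the endosome and across the apical membrane of tubule cells. Control libraries had 21.0, 20.4 and 17.4 FPKM and KSPAPN libraries had 14.4, 14.5 and 16.0 FPKM. The groups did not overlap, and the KSPAPN libraries were the closer to each other. The means were 19.6 ± 1.92 and 14.95 ± 0.937 FPKM (SD, n = 3 per group). Its log2 fold change was -0.38 with an SE of 0.099. Its adjusted p of 0.0739 in edgeR was the smallest of the 10 genes, and in DESeq2 it was 0.0259. It passed in 3 alternatives: DESeq2, no filter on low counts (adjusted p 0.0145) and the correction for GC content and length (adjusted p 0.0432). Leaving out single libraries gave -0.46 to -0.33, with adjusted p from 0.0720 to 0.284. *Gm5475*, on the opposite strand, shared 6.33% of the exonic bases and had 2 to 35 counts. Reads were counted per gene, so the transcripts of *Slc11a2* with and without the element could not be told apart.

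*Steap3* (ENSMUSG00000026389, chr1:120190757-120272705) encodes the ferrireductase of the endosome. It had 3.14, 3.10 and 3.49 FPKM in Control and 3.67, 3.13 and 3.23 FPKM in KSPAPN. The values were interleaved, and the means were 3.25 ± 0.217 and 3.34 ± 0.286 FPKM (SD, n = 3 per group). The log2 fold change was 0.049 with an SE of 0.13 and a 95% interval of -0.24 to 0.34 (adjusted p 0.875 in edgeR), so a difference of the size fitted for *Tfrc* lay outside the interval. Without KSPAPN replicate 1 it was -0.013.

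*Trf* (ENSMUSG00000032554, chr9:103204001-103230444), the transferrin of plasma, is made chiefly by the liver. It had 10, 15 and 18 counts in Control and 24, 8 and 29 counts in KSPAPN. The lowest and highest counts were both in KSPAPN. The exact Poisson 95% intervals cover counting error only. For the count of 8 in KSPAPN replicate 2 the interval ran from 3.45 to 15.8. For the count of 29 in KSPAPN replicate 3 it ran from 19.4 to 41.6, so these KSPAPN intervals did not overlap. The log2 fold change was 0.26 with an SE of 0.49 (adjusted p 0.820 in edgeR, none given by DESeq2), and it was -0.10 without KSPAPN replicate 3 and 0.59 without KSPAPN replicate 2. With low counts and a spread between KSPAPN pools beyond counting error, a difference of the size seen in the other genes could not be shown. The level itself is also uncertain, since 63.5% of the exonic bases of *Trf* lie in *Gm20425*, an overlapping gene on the same strand that had 0 counts in every library.

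Transcripts of liver were followed with 8 hepatocyte markers. Of these 1 was called lower, *Ttr* (transthyretin, log2 fold change -1.17, adjusted p 0.0388 in edgeR), and it lost the call without Control replicate 1, Control replicate 2 or KSPAPN replicate 3 (adjusted p 0.175, 0.109 and 0.148). Albumin, *Alb*, had 111, 100 and 47 counts in Control and 15, 191 and 213 in KSPAPN. *Ahsg* and *Hamp* had too few counts to be tested, and no marker was at 0 in all libraries. The list summed to 119 to 225 CPM in Control and 82.8 to 126 CPM in KSPAPN. Its part in the level of *Trf* was not tested.

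Export rests on *Slc40a1* (ENSMUSG00000025993, chr1:45908068-45926523), which encodes ferroportin, the iron exporter of the basolateral membrane and of macrophages. It had 5.47, 5.87 and 5.81 FPKM in Control and 6.70, 6.83 and 8.83 FPKM in KSPAPN. Every KSPAPN library lay above every Control library, and KSPAPN replicate 3 stood apart at the top. The means were 5.72 ± 0.213 and 7.45 ± 1.19 FPKM (SD, n = 3 per group). Its log2 fold change was 0.39 with an SE of 0.12, the highest of the 10 genes, and the adjusted p was 0.107 in edgeR and 0.0637 in DESeq2. Without KSPAPN replicate 3 it was 0.25 (adjusted p 0.314). Without KSPAPN replicate 1 it was 0.47 and passed (adjusted p 0.0475), as it did without the filter on low counts (adjusted p 0.0238). After the correction for GC content (42.0% in this transcript) and length it was 0.27 (adjusted p 0.193).

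Macrophages, which recycle iron from red cells, also express ferroportin, and their markers were therefore read in the same libraries. Of 9 macrophage markers 8 were tested, 0 were called in either direction by edgeR or DESeq2 and 0 passed at an unadjusted p under 0.05. *Csf1r* had a log2 fold change of -0.19 and *Lyz2* one of 0.35, and none of the 9 was at 0 in all libraries. The list summed to 134 to 138 CPM in Control and 111 to 150 CPM in KSPAPN. In KSPAPN replicate 3, where *Slc40a1* was highest, it summed to 123 CPM. The part of macrophages in the level of *Slc40a1* was not tested.

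**Figure D2:**
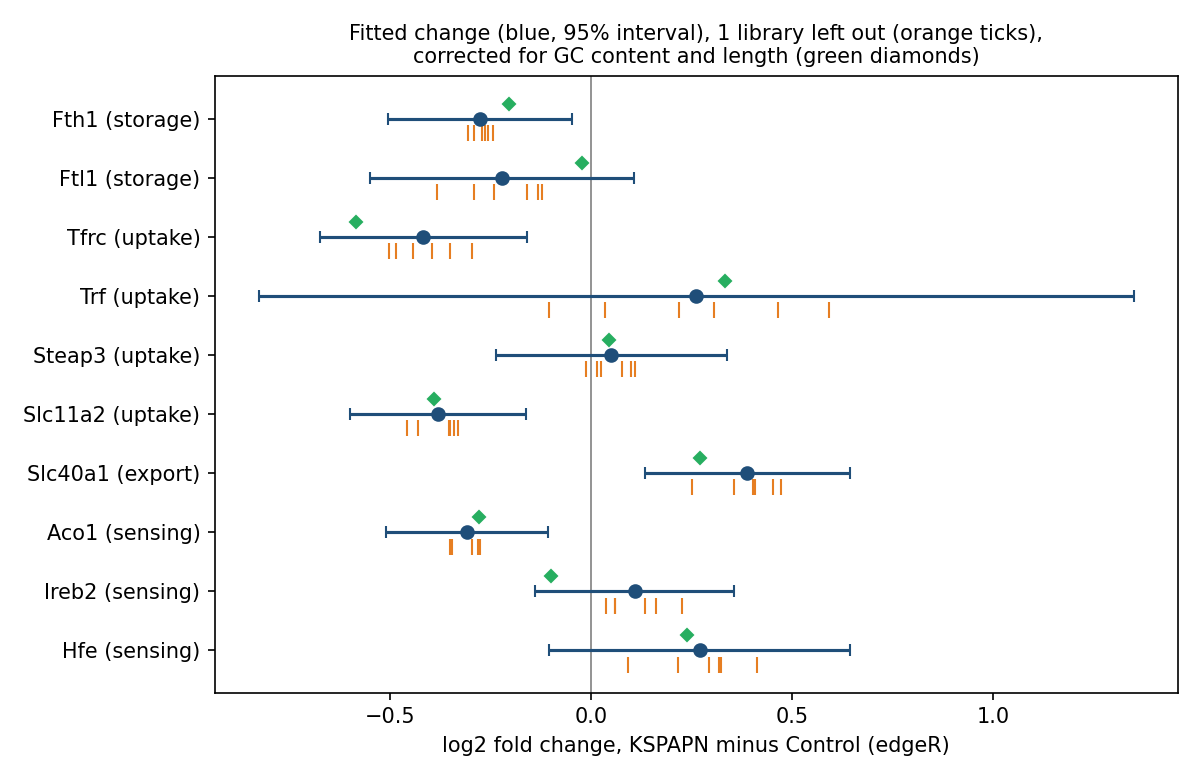
Log2 fold change (KSPAPN minus Control, edgeR) of the 10 iron genes by role, with its 95% interval (blue); orange ticks are fits without 1 of the 6 libraries, and green diamonds are fits corrected for GC content and length. *Fth1*, *Tfrc*, *Slc11a2* and *Aco1* stay below 0 and *Slc40a1* above 0 in every fit drawn, while *Ireb2* crosses 0 after the correction and the ticks of *Trf* and *Steap3* lie on both sides of 0.

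The sensing genes were *Aco1* and *Ireb2*, which encode IRP1 and IRP2, and *Hfe*, which encodes a membrane protein that binds the transferrin receptor and acts in the control of hepcidin. *Aco1* (ENSMUSG00000028405, chr4:40143081-40198338) makes a protein with 2 forms, a cytosolic aconitase when it holds an iron-sulfur cluster and an RNA-binding protein when it does not. It had 97.2, 94.3 and 86.9 FPKM in Control and 72.6, 72.4 and 78.8 FPKM in KSPAPN. The groups did not overlap. The means were 92.8 ± 5.30 and 74.6 ± 3.63 FPKM (SD, n = 3 per group). Its log2 fold change was -0.31 with an SE of 0.091, and the adjusted p was 0.103 in edgeR and 0.0386 in DESeq2. Leaving out single libraries gave -0.35 to -0.28, and the correction for GC content and length gave -0.28 (adjusted p 0.0927).

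*Ireb2* (ENSMUSG00000032293, chr9:54863789-54912530) makes a protein without aconitase activity that is degraded when iron is plentiful. It had 11.3, 13.4 and 12.9 FPKM in Control and 11.4, 14.5 and 14.4 FPKM in KSPAPN. Replicate 1 was the low library in each group, and the ranges overlapped. The means were 12.5 ± 1.11 and 13.4 ± 1.75 FPKM (SD, n = 3 per group). The log2 fold change was 0.11 with an SE of 0.11 and a 95% interval of -0.14 to 0.36 (adjusted p 0.653 in edgeR). The direction reversed to -0.099 after the correction for GC content (39.0% in this transcript) and length. Without KSPAPN replicate 1 it was 0.22 (adjusted p 0.213), without Control replicate 1 it was 0.036, and without KSPAPN replicate 2 or 3 it was 0.059.

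Because IRP1 and IRP2 read the same elements, their mRNAs were set against each other within each library. *Ireb2* per 100 *Aco1* was 11.6, 14.2 and 14.8 in Control and 15.7, 20.0 and 18.3 in KSPAPN on the FPKM scale. The KSPAPN libraries all lay above the Control libraries. The means were 13.5 ± 1.72 and 18.0 ± 2.14 (SD, n = 3 per group), with no test made of this ratio. The difference of the 2 log2 fold changes was 0.42, and it lay between 0.31 and 0.50 when single libraries were left out. After the correction for GC content and length it was 0.18. *Aco1* was the more abundant of the 2 mRNAs in every library.

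**Figure D3:**
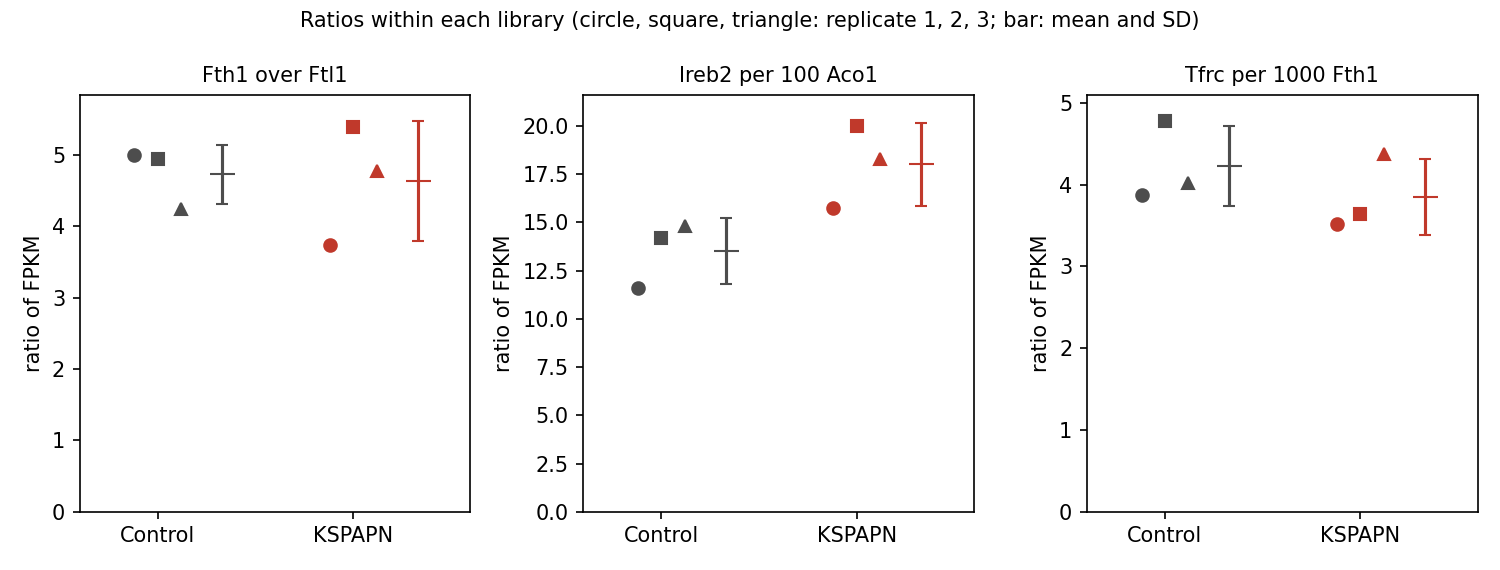
Ratios of FPKM within each of the 3 Control (grey) and 3 KSPAPN (red) libraries, on linear axes from 0; circles, squares and triangles are replicates 1, 2 and 3, and the bar is the mean with its SD. *Ireb2* per 100 *Aco1* is higher in the KSPAPN libraries (15.7 to 20.0) than in the Control libraries (11.6 to 14.8), and the other two ratios overlap between the groups.

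*Hfe* (ENSMUSG00000006611, chr13:23702034-23710854) had 4.05, 5.88 and 6.48 FPKM in Control and 6.21, 6.40 and 7.08 FPKM in KSPAPN. Control replicate 1 was the lowest of all 6 libraries, and Control replicate 3 lay within the KSPAPN range. The means were 5.47 ± 1.27 and 6.56 ± 0.455 FPKM (SD, n = 3 per group). This was a log2 fold change of 0.27 with an SE of 0.17 (adjusted p 0.428 in edgeR). Without Control replicate 1 it was 0.090 (adjusted p 0.839), and without Control replicate 3 it was 0.41 (adjusted p 0.294).

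The spread between libraries of a group differed widely among the 10 genes. For 7 of the 10 the within-group SD of log2 CPM was below the median of all genes tested. *Fth1* lay at percentile 2.64 of all genes and *Aco1*, at 0.0749 in log2 CPM, at percentile 7.99. *Trf*, with few counts, lay at percentile 93.1 with an SD of 0.709. The fitted fold of *Fth1* was 0.826 and that of *Aco1* was 0.807, both differences larger than the spread within groups, and neither reached an adjusted p under 0.05 in edgeR.

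Other genes of iron metabolism were read from 4 lists, with 78 genes in all, of which 69 were tested. In edgeR 0 of the 69 were called higher and 2 were called lower, *Bmp6* and *Cisd1*, against 0.393% and 2.25% of all genes tested. At an unadjusted p under 0.05, 5 were higher and 16 were lower, where 7.52% and 11.2% of all genes tested were. With DESeq2, 0 were called higher and 6 lower, against 1.22% and 5.11% of the genes to which it gave an adjusted p. Among the 6 were *Bmp6*, *Cisd1*, *Iscu* and *Ciapin1* (*Iscu* and *Ciapin1* are named after their values were seen). The 69 genes had a median of -0.13 in log2 fold change, against 0.012 over all genes tested.

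Of 30 further genes of iron handling 23 were tested, and 1 was called lower. *Bmp6*, the ligand by which body iron raises hepcidin in the liver, had 12.4, 11.0 and 12.7 FPKM in Control and 7.30, 8.11 and 6.68 FPKM in KSPAPN. The groups were well apart, and every KSPAPN library was below every Control library. This was a log2 fold change of -0.71 with an SE of 0.11 and an adjusted p of 0.0116 in edgeR. *Bmp6* lost the call without Control replicate 1 (log2 fold change -0.69, adjusted p 0.0729) or KSPAPN replicate 3 (-0.64, adjusted p 0.0708). The other 22 genes did not pass, and the median of the list was 0.085, with 15 genes above 0 and 8 below. Hepcidin itself, *Hamp*, had 0, 3 and 0 counts in Control and 0, 2 and 1 in KSPAPN, too few to be tested. *Ftmt*, *Hephl1* and *Hamp2* had 0 counts in every library.

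Of 22 genes of iron-sulfur cluster assembly 21 were tested. Among them 16 lay below 0 and the median was -0.25, and an unadjusted p under 0.05 was reached by 9 genes that were lower and by 1 that was higher, against 11.2% and 7.52% of all genes tested. The only gene called by edgeR was *Cisd1*, called lower, which encodes mitoNEET, an iron-sulfur protein of the outer mitochondrial membrane. It had 202, 212 and 185 FPKM in Control and 136, 152 and 146 FPKM in KSPAPN, with no overlap. Its log2 fold change was -0.46 with an adjusted p of 0.0287 in edgeR. *Cisd1* kept the call only without KSPAPN replicate 1 among the 6 fits that left out a library (adjusted p 0.0382), and in the other 5 its adjusted p was 0.0518 to 0.141. After the correction for GC content and length it was -0.30 (adjusted p 0.0713). *Iscu*, the scaffold on which clusters are built, was at -0.44 (adjusted p 0.0869 in edgeR and 0.0200 in DESeq2).

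All 20 genes of heme synthesis, transport and breakdown were tested, and 0 were called by edgeR or DESeq2, with 1 higher and 3 lower at an unadjusted p under 0.05 (7.52% and 11.2% of all genes tested). The median was -0.13, with 14 genes below 0. The largest differences among genes with a mean of at least 1 FPKM were those of *Hebp1*, a heme-binding protein (log2 fold change -0.62, adjusted p 0.354 in edgeR), and *Flvcr2*, a heme and choline transporter (-0.41, adjusted p 0.214). *Hebp1* ran from -0.34 (without KSPAPN replicate 3) and -0.38 (without Control replicate 3) to -0.92 (without Control replicate 2) when single libraries were left out, and it was called lower without the filter on low counts (adjusted p 0.000204 in edgeR). *Hmox1*, which opens the heme ring and frees its iron, had 18.8, 23.2 and 20.0 FPKM in Control and 20.7, 23.4 and 18.2 FPKM in KSPAPN. *Hmox1* and *Hmox2* are named here after their values were seen. *Hmox2* had a log2 fold change of 0.27 (adjusted p 0.165 in edgeR) and was called higher after the correction for GC content and length (0.37, adjusted p 0.0490).

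Of 6 further transcripts known to carry an iron-responsive element 5 were tested, and 0 were called by edgeR. DESeq2 called 1 lower and 0 higher, against 5.11% and 1.22% of the genes to which it gave an adjusted p. At an unadjusted p under 0.05 in edgeR, 1 was higher and 1 lower, where 7.52% and 11.2% of all genes tested were. *Cdc42bpa* was at a log2 fold change of 0.19 (adjusted p 0.253 in edgeR). *Alas2*, the heme synthesis enzyme of red cell precursors, was at 0.18 (adjusted p 0.803), and *Hao1* had 0 counts.

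**Figure D4:**
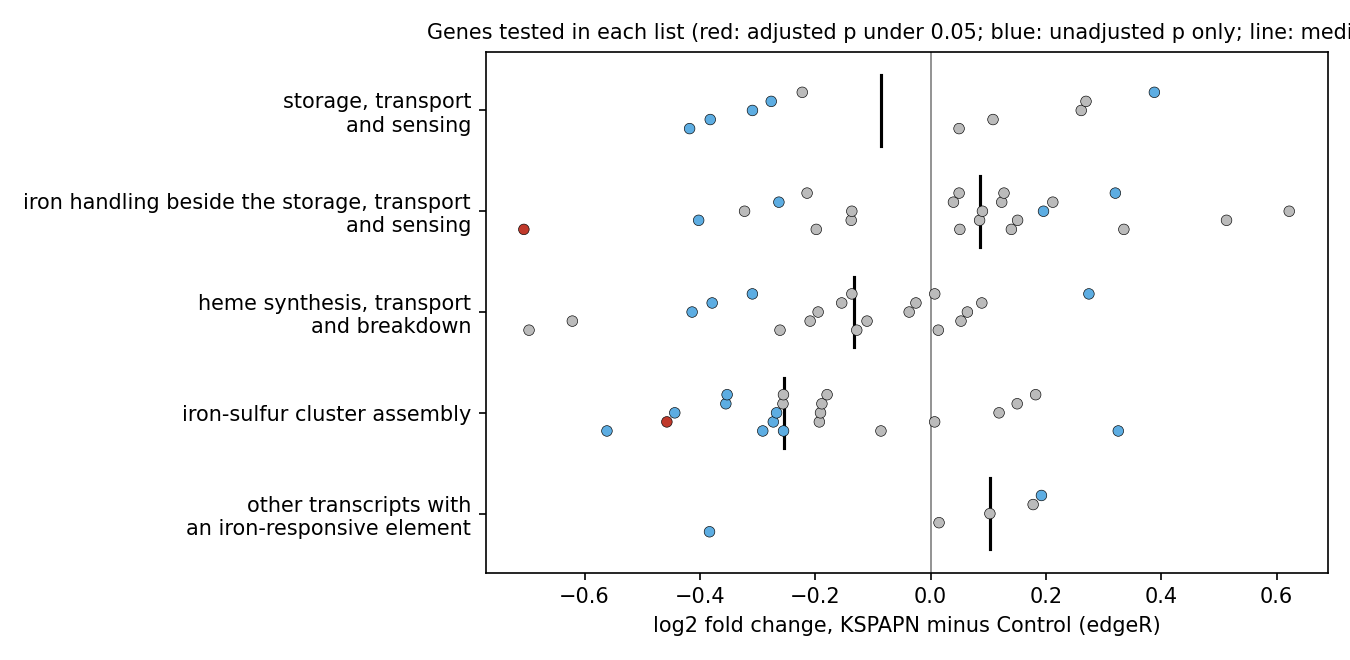
Log2 fold change (KSPAPN minus Control, edgeR) of each tested gene in the 10 genes of storage, transport and sensing and in the 4 lists of other iron genes; red points have an adjusted p under 0.05, blue points only an unadjusted one, and the line is the median. *Bmp6* (-0.71) and *Cisd1* (-0.46) are the red points, and the points of iron-sulfur cluster assembly lie mostly below 0, with a median of -0.25.

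Red cell precursors depend on *Tfrc* and *Alas2*, and erythroid markers were read in the same libraries. Of 8 erythroid markers 6 were tested, and 0 were called by edgeR or DESeq2 or passed at an unadjusted p under 0.05. *Hbb-bs* was at a log2 fold change of 0.20 and *Hbb-bt* at 0.51. The list summed to 90.3 to 163 CPM in Control and 111 to 219 CPM in KSPAPN, with KSPAPN replicate 1 the highest, the library in which *Tfrc* was lowest. The other two markers had too few counts to be tested, and no marker was at 0 in all libraries. The 5 adipocyte markers, of which 2 were tested and 0 called, summed to at most 2.22 CPM in any library. The 5 glomerular markers were all above 0 in log2 fold change, with 0 called and a median of 0.24 (*Wt1* 0.39), and summed to 211 to 328 CPM in Control and 288 to 411 CPM in KSPAPN. The part of these cells in the values of the iron genes was not tested.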

How the data were processed

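Poly(A) RNA of 6 pools of mouse kidney was sequenced. The authors deposited raw read counts per gene, without normalization, and FPKM, scaled by gene length and library size. The submitters' processing notes name STAR 2.5, TopHat, HTSeq 0.6.1, DESeq2 and edgeR; the genome build, the annotation and the strand setting were not given in the sources used here. Identifiers were matched to GENCODE M21 (GRCm38), where 54495 of 54532 were found. *Hjv* and *Fdx2* carry the older symbols *Hfe2* and *Fdx1l* there.

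Counts were analysed with edgeR 4.0.16 in R 4.3.3 (TMM normalization, minimum count 10, minimum total 15, two-sided quasi-likelihood test, Benjamini-Hochberg adjustment over 16017 genes, threshold 0.05). The code was tested on simulated data. Alternatives were DESeq2 1.42.0, RLE factors, total counts only, no filter, limma 3.58.1 on log2(FPKM + a pseudocount of 1, 0.1 or 0.01), scaling that left out mitochondrially encoded genes and *Adipoq*, the replicate number as a block, offsets against GC content and length of the longest transcript, both together, ferritin pseudogene rows added to their parents, and each library left out. Plots were drawn with matplotlib 3.10.9.

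All 10 genes are named. Of each other list, the genes called by edgeR are named, or otherwise the 2 with the largest log2 fold change at a mean of at least 1 FPKM; others are said to be chosen later. Some genes that this rule names are not reported here. Members and lists were chosen with earlier results of these data known. PCR copies could not be told apart, and intervals on counts therefore cover only counting error.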

Additional observations from a re-analysis of the deposited data

How the results depend on the processing

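The median over the 10 genes, -0.086 in log2 fold change, stayed below 0 in every alternative but moved from -0.14 to -0.013 when single libraries were left out, and to -0.013 with total counts only. The number called lower, 0 in edgeR, was 3 with DESeq2, 2 without the filter on low counts, 2 after the correction for GC content and length and 1 after that correction with the replicate block. The number called higher was 1 without the filter, and 0 to 1 when single libraries were left out. *Ireb2* reversed to -0.099 after the correction for GC content and length and to -0.10 with the block added. When single libraries were left out, the log2 fold change of *Trf* ran from -0.10 (without KSPAPN replicate 3) to 0.59, and that of *Steap3* from -0.013 (without KSPAPN replicate 1) to 0.11. Of the markers, *Hbb-bs* ran from -0.18 (without KSPAPN replicate 1; -0.00052 without Control replicate 3) to 0.39, *Lyz2* from -0.086 (without KSPAPN replicate 1) to 0.54 and *Wt1* from -0.014 (without KSPAPN replicate 3) to 0.70. Over the 10 genes and all alternatives, 157 values kept their direction and side of the threshold, 11 passed it and 4 reversed. Of the other iron genes, 2 were called lower in edgeR, 6 with DESeq2, 10 without the filter, 8 with the block, 1 with each limma pseudocount and 0 to 6 when single libraries were left out. For higher, 0 became 1 after the correction, alone or with the block. The cause was not tested.

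The same replicate numbers occur in both groups. Deviations of same-numbered libraries from their group means correlated at r = 0.05, 0.15 and 0.17, so the numbers were not taken to pair the pools, although each library correlated best with its own number. With the replicate block 1 of the 10 genes was called lower (*Tfrc*). Over the whole table, 63 genes were called higher and 361 lower. The counts were 224 and 705 with the block, 178 and 746 with DESeq2, 301 and 1038 without the filter, 129 and 588 with the correction and block, 71 and 195 with total counts only, 7 to 10 and 95 to 118 with limma, and 5 to 162 and 34 to 571 when single libraries were left out. Total counts moved the median of all genes to 0.081 from 0.012. The 8 to 29 counts of *Trf* per library, and their spread within KSPAPN, limited what could be shown for it.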

Other observations

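*Ltf*, which encodes lactoferrin, an iron-binding protein of secretions and neutrophils, did not pass the filter on low counts. It is named after its values were seen, and it was not called in the fit without that filter. It had 2, 2 and 1 counts in the Control libraries and 10, 8 and 9 counts in the KSPAPN libraries. The KSPAPN counts were all higher, and each rests on at most 10 reads. Of the genes that were tested, 11.4% were higher in KSPAPN without overlap in CPM.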
